A study of Mus musculus with 8 samples.

Results

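The genes described here encode ligands, receptors and intracellular regulators of the TGF-beta and activin pathway. They were chosen by name, and all 10 were found among the 55450 genes of the count table: Tgfb1, Tgfb2, Tgfb3, Inhba, Nrros, Tgfbr1, Tgfbr2, Smad3, Smad7 and Ski. All 10 passed the filter on low counts that left 16467 genes to test. The mRNA 3′ ends of myeloid cells were sequenced after sorting from GL261 tumors, a mouse glioma line, grown in the brains of mice whose genotype is given as WT. The microglia group held 3 libraries of cells positive for F4/80 and CD11b, with low CD45 and low or absent CD49d. The BMDM group (bone marrow-derived macrophages, blood-borne cells that enter the tumor) held 5 libraries of F4/80 and CD11b positive cells that were CD45 positive and CD49d high. Cells of both gates were low or negative for Ly6C and negative for Ly6G. All libraries came from tumors, so no untreated brain or tumor-free control was available, and the labels give neither strain, age nor the mouse behind each library.

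TGF-beta ligands are secreted in a latent form, held by a propeptide that is tethered to a milieu protein such as NRROS, and integrins or other factors release the active cytokine. The active ligand joins the type II receptor TGFBR2 with the type I receptor TGFBR1, which phosphorylates SMAD2 and SMAD3. These enter the nucleus with SMAD4, while SMAD7 and SKI restrain the signal. Activin A, a dimer of the product of Inhba, uses its own type I and type II receptors but acts through the same SMAD2 and SMAD3. In mice, TGF-beta signaling is required for the mature microglial state in the brain.

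Library totals ran from 5890406 to 16659154 counts, and the 10 genes together took 3335 to 13522 counts per library. BMDM 4 and BMDM 5 stood apart from the other BMDM libraries: 41.2% and 48.9% of their counts fell on the rRNA-overlapping model Gm42418, where BMDM 1 to 3 had 14.8% to 19.8% and microglia 34.0% to 47.0%. They had 13346 and 14638 genes with a count, against 20011 to 21778 in BMDM 1 to 3. The values of the 10 genes are therefore also given with BMDM 1 to 3 alone. For the genes named from the further pathway lists below, they are given where that changed the call or the sign. Other genes of those lists changed as well and are not given one by one. BMDM 4 and 5 were set apart after their values were seen, so the adjusted p-values of that fit describe a subset chosen afterwards. All 317 genes called with 8 libraries were called in the same direction with BMDM 1 to 3 alone. In that comparison the groups differ without overlap in their share of Gm42418, so that cell type and that share cannot be told apart. The sorted populations carried their markers: 6 of 8 monocyte-derived macrophage markers rose in BMDM and 5 of 8 microglial markers fell. The first list summed to 182 to 278 CPM in microglia and 520 to 989 in BMDM. Its gene Fn1 leaned the other way without a call (log2 fold change -0.50). Microglial markers summed to 1081 to 2862 CPM in microglia, and BMDM still held 169 to 787, the most in BMDM 3. In bulk samples such as these, fewer cells expressing a gene and less RNA per cell cannot be told apart.

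Inhba rose in BMDM and was the only gene of the 10 to pass the test in either direction (1 higher, 0 lower). Of all genes tested, 1.93% were called, 1.11% higher and 0.814% lower (edgeR quasi-likelihood fit, Benjamini-Hochberg adjusted p under 0.05). The receptor genes Tgfbr1 and Tgfbr2 had lower levels in every BMDM library than in any microglia library, but neither passed the test. Without adjustment, 2 of the 10 were higher (Inhba and Tgfb3) and 4 lower (Tgfbr1, Tgfbr2, Smad3 and Smad7) at a p under 0.05, against 6.49% and 7.27% of all genes. With DESeq2, 1 was higher and 0 lower as well. With BMDM 1 to 3 alone, 1 was higher and 3 were lower (Tgfbr1, Smad7 and Ski), where 6.35% of all genes were higher and 8.11% lower.

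**Figure D1:**
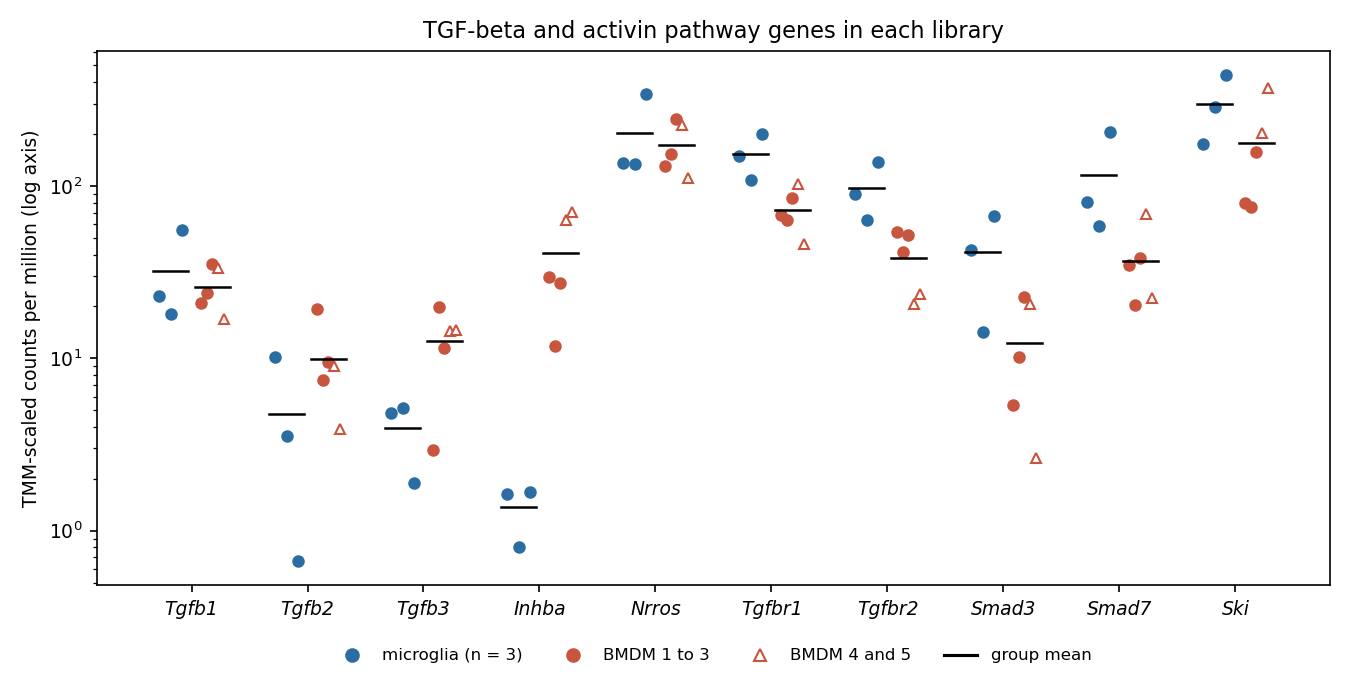
Level of each gene in each library, in TMM-scaled CPM on a log axis, for microglia (blue, n = 3) and BMDM (red, n = 5). Open triangles are BMDM 4 and BMDM 5, and horizontal lines are group means. Inhba lies between 11.8 and 70.8 in BMDM, above all microglia, whose highest value is 1.67.

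The DNA just upstream of the start site is shown for the gene that rose and for the 2 receptor genes whose libraries did not overlap between groups. These are the only members without overlap, and of them Inhba alone passed the test. The sequences are from RefSeq on GRCm38.p6, with entries for 8 of the 10 genes (Tgfb3 and Smad7 were not matched). Each holds the 250 bases before the annotated start, 5′ to 3′ on the strand of the gene, and capitals mark CAGAC or its reverse complement GTCTG, a core of the SMAD binding element. Inhba lies at chr13:16011601-16011850 on the plus strand, Tgfbr1 at chr4:47352972-47353221 on the plus strand and Tgfbr2 at chr9:116175364-116175613 on the minus strand.
Inhba: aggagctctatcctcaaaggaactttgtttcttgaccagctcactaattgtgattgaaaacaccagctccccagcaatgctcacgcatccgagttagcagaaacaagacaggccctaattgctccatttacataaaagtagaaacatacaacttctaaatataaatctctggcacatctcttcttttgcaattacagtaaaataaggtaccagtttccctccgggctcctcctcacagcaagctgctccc
Tgfbr1: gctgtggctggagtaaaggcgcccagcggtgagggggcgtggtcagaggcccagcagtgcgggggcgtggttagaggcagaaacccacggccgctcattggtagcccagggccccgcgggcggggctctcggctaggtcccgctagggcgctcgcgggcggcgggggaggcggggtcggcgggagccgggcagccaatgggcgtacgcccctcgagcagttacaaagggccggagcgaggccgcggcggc
Tgfbr2: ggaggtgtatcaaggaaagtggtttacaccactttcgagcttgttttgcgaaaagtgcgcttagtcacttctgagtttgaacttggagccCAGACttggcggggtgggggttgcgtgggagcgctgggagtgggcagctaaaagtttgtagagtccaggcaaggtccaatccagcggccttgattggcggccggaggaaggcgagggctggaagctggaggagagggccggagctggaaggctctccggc
Tgfbr2 held 1 such match, 155 bases before the start, and the other two sequences held 0. Of 32851 promoter windows of the same length, 42.19% held at least 1. The AP-1 element TGANTCA, which reads the same on both strands and can share end bases with CAGAC or GTCTG, was found in 0 of the 8 windows and in 6.749% of all. The upstream bases were 43.2% G or C in Inhba, 74.8% in Tgfbr1 and 58.4% in Tgfbr2, with a median of 52.4% over all windows. These matches describe the letters only.

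Among the ligands, Inhba (chromosome 13, 16011851 to 16031621, GRCm38) encodes the subunit of activin A. It had 1.63, 0.80 and 1.67 CPM (library-size-scaled counts, with TMM factors) in microglia 1 to 3, from 31, 8 and 15 counts. In BMDM 1 to 5 it had 29.7, 11.8, 27.3, 63.8 and 70.8 CPM, from 223, 96, 239, 401 and 512 counts. The lowest BMDM library was thus above the highest microglia library, which held for 4.32% of all genes tested. Mean levels were 1.37 ± 0.488 CPM (SD, n = 3) for microglia and 40.7 ± 25.4 (n = 5) for BMDM. The fitted difference was 29.3-fold, or 4.87 on the log2 scale (SE 0.68), with an edgeR adjusted p = 0.00167. With BMDM 1 to 3 alone it was 4.06 (SE 0.52, adjusted p = 0.00124), and with each library left out it stayed between 4.54 and 5.11 and past the threshold. With limma-voom the value was 4.58 and the call was lost (adjusted p = 0.0845). BMDM 4 and BMDM 5, the libraries rich in Gm42418, held the 2 highest levels of Inhba.

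Markers of other cell types differed between the groups as well, in both directions. Sorting on F4/80 and CD11b while excluding Ly6G is meant to leave out neutrophils, lymphocytes and endothelial cells. The summed level of 8 neutrophil markers was 51.8 to 109 CPM in BMDM and 3.78 to 13.04 in microglia. Of these, 6 had enough counts to test and 1 was called higher (S100a8). Border-associated macrophage markers summed to 158 to 907 CPM against 15.4 to 78.4, with 2 of the 4 tested called higher (F13a1 and Pf4). T and NK cell markers stood at 19.9 to 174 CPM against 2.22 to 11.97, with 0 of the 6 tested called. The 6 endothelial markers stood at 292 to 730 against 117 to 127, with 1 called (Ly6a). Dendritic cell markers overlapped between groups, at 15.3 to 88.8 CPM against 6.01 to 16.8, with 1 of the 6 tested called higher (Ccr7). B cell markers leaned the other way, at 6.22 to 35.2 CPM in BMDM and 22.4 to 90.7 in microglia. Platelet markers did as well, at 2.07 to 17.7 against 10.1 to 19.2. Only 2 of 6 B cell and 3 of 6 platelet markers had enough counts to test, and 0 were called. Of the markers of these 7 lists, Gp1bb alone was at 0 in all libraries. Astrocyte and glioma markers summed to 372 to 804 CPM in microglia and 410 to 535 in BMDM, with 1 called lower. Erythroid markers stood at 110 to 248 CPM in microglia and 27.6 to 161 in BMDM, with 0 called. Markers of the oligodendrocyte lineage, neurons, and pericytes and fibroblasts also overlapped between groups, with 0 called. The part of any of these cells in the difference in Inhba was not tested.

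Tgfb1 (chromosome 7, 25687002 to 25705077) encodes the isoform that dominates in immune cells. It had 23.1, 18.003 and 55.3 CPM in microglia 1 to 3 and 20.9, 23.9, 35.1, 33.4 and 16.999 CPM in BMDM 1 to 5. The groups overlapped, with microglia 3 the highest of all 8 libraries. On the log2 scale BMDM minus microglia was -0.30 (95% interval -1.22 to 0.62, adjusted p = 0.858), -0.24 with BMDM 1 to 3 alone, and 0.27 without microglia 3. A difference within that interval, in either direction, could not be resolved with these libraries.

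Tgfb2 (chromosome 1, 186622792 to 186705989) had 10.1, 3.52 and 0.67 CPM in microglia and 19.3, 7.51, 9.49, 9.07 and 3.87 CPM in BMDM. Its level differed among the microglia libraries by more than between the groups, from 193 counts in microglia 1 to 6 in microglia 3. The log2 difference was 1.03 (95% interval -0.80 to 2.86, adjusted p = 0.709). It was 1.31 with BMDM 1 to 3 alone, and ran to 2.21 without microglia 1 and to 0.46 without microglia 3. Tgfb3 (chromosome 12, 86056745 to 86079041) had 4.84, 5.13 and 1.89 CPM in microglia and 2.93, 19.8, 11.6, 14.3 and 14.6 CPM in BMDM. BMDM 2 to 5 lay above all microglia and BMDM 1 lay among them. Its log2 fold change was 1.67 (SE 0.73, adjusted p = 0.315), or 1.53 with BMDM 1 to 3 alone, and did not pass the test under any alternative. An antisense transcript, Gm48008, shares 257 exonic bases with Tgfb3 on the other strand and had 199 counts against 640 for Tgfb3. The sources used here do not say whether counting used strand, so reads of the pair may not be told apart.

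Tgfb1 gave the largest part of the TGF-beta ligand counts in 8 of 8 libraries. Its share was 60.6%, 67.5% and 95.6% in microglia 1 to 3, with exact 95% binomial intervals of 57.0% to 64.2%, 61.5% to 73.1% and 93.4% to 97.2%, which cover counting error only. In BMDM 1 to 5 the share was 48.5%, 46.6%, 62.5%, 58.8% and 47.9%. The ranges overlapped between BMDM and microglia. Tgfb3 held 3.27% to 19.2% in microglia and 6.79% to 41.2% in BMDM, and Tgfb2 held 1.15% to 26.7% and 10.9% to 44.8%. The libraries read 3′ ends, so these counts were not divided by gene length. Dividing by exon length, a scaling that 3′ reads do not call for and that raises shorter genes such as Tgfb3, put Tgfb3 first in BMDM 2 and BMDM 5, at 49.3% and 51.7%.

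**Figure D2:**
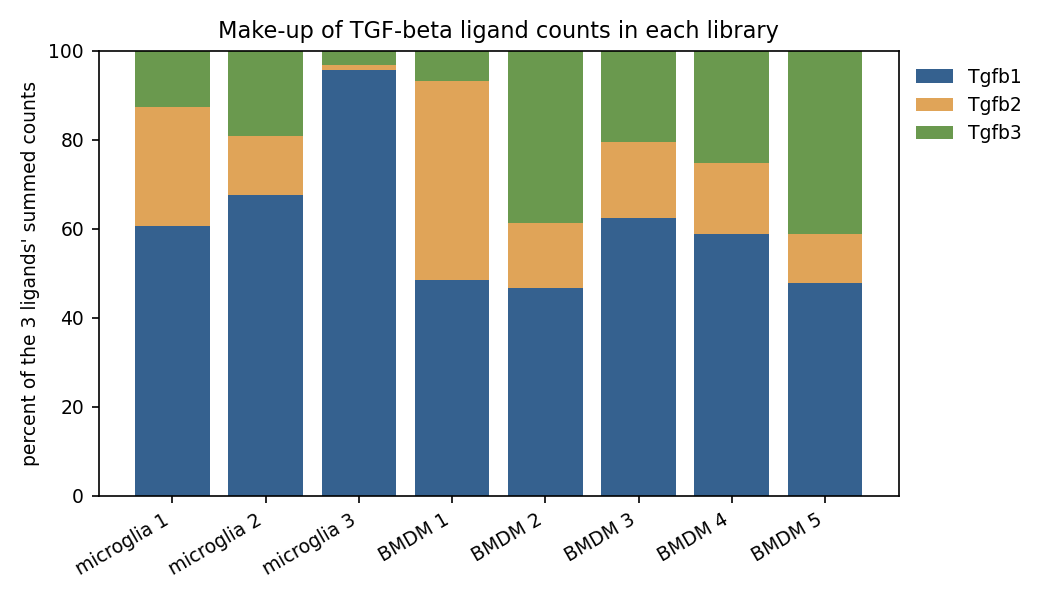
Share of Tgfb1, Tgfb2 and Tgfb3 in their summed counts, in percent, with 1 bar for each library. Tgfb1 holds between 46.6% and 95.6% of each bar, and Tgfb2 reaches 44.8% in BMDM 1.

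Nrros (chromosome 16, 32142785 to 32165594) encodes the protein that anchors latent TGF-beta 1 on microglia and other myeloid cells. It was measured at 135, 134 and 342 CPM in microglia and at 130, 154, 245, 225 and 111 CPM in BMDM, and the groups overlapped. BMDM minus microglia was -0.24 on the log2 scale (95% interval -1.14 to 0.67, adjusted p = 0.895), -0.18 with BMDM 1 to 3 alone, and 0.29 without microglia 3.

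The receptors stood lower in BMDM. Tgfbr1 (chromosome 4, 47353222 to 47414931), the type I kinase receptor, had 149, 108 and 201 CPM in microglia and 67.8, 63.4, 85.3, 103 and 45.7 CPM in BMDM. The highest BMDM library, BMDM 4, was just under the lowest microglia library, microglia 2. The log2 difference came to -1.07 (SE 0.35, adjusted p = 0.165). With BMDM 1 to 3 alone it was -1.06 (SE 0.28) and passed (adjusted p = 0.0287). Tgfbr2 (chromosome 9, 116084293 to 116175360), the type II receptor that binds ligand first, had 89.2, 63.3 and 138 CPM in microglia and 53.9, 41.4, 51.8, 20.7 and 23.8 CPM in BMDM. Here too the groups did not overlap, and BMDM 4 and 5 were the lowest libraries. BMDM minus microglia came to -1.34 on the log2 scale (SE 0.40, adjusted p = 0.116). With BMDM 1 to 3 alone it was -0.96 (SE 0.30) and missed the threshold (adjusted p = 0.0552). BMDM below all microglia without overlap was seen for 8.66% of all genes tested, and for 2 of the 10 here.

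Smad3 (chromosome 9, 63646767 to 63757994), which carries the signal of both TGF-beta and activin to the nucleus, varied widely within groups. It had 42.2, 14.3 and 67.1 CPM in microglia and 5.33, 10.2, 22.5, 20.7 and 2.63 CPM in BMDM. Microglia 2 lay below BMDM 3 and BMDM 4, so the groups overlapped, while the other microglia libraries were above all BMDM. The log2 fold change was -1.74 (SE 0.63, adjusted p = 0.203), and -1.67 with BMDM 1 to 3 alone (adjusted p = 0.0786).

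The inhibitors differed in how firmly they stood lower. Smad7 (chromosome 18, 75367529 to 75395935), an inhibitory SMAD that is itself induced by TGF-beta, had 80.7, 58.8 and 206 CPM in microglia and 34.6, 20.4, 38.0, 69.1 and 22.4 CPM in BMDM. BMDM 4 alone reached the microglial range. The log2 fold change was -1.64 (SE 0.47, adjusted p = 0.0957), -1.002 without microglia 3, and -1.86 (SE 0.44, adjusted p = 0.0169) with BMDM 1 to 3 alone. Ski (chromosome 4, 155154075 to 155222592), a nuclear corepressor of SMAD proteins, had 175, 286 and 440 CPM in microglia and 79.8, 75.7, 158, 203 and 372 CPM in BMDM. BMDM 1 to 3 were below all microglia, whereas BMDM 4 and 5 lay within the microglial range. The log2 fold change was -0.76 (SE 0.51, adjusted p = 0.603). With BMDM 1 to 3 alone it was -1.50 (SE 0.39) and passed (adjusted p = 0.0264). BMDM 4 and 5 shared with microglia a high part of counts on Gm42418, and its part in these values was not tested.

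**Figure D3:**
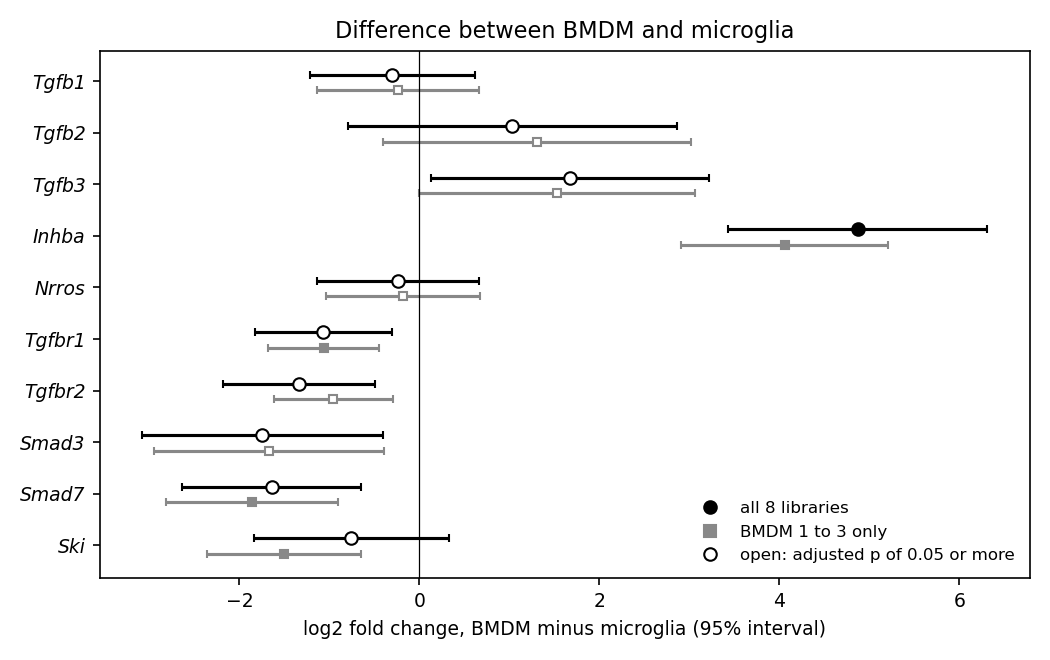
Log2 fold change of each gene, BMDM minus microglia, with its 95% interval, for all 8 libraries (black circles) and for BMDM 1 to 3 alone (grey squares). Filled symbols passed the test: Inhba at 4.87 and 4.06, and, with BMDM 1 to 3 alone, Tgfbr1, Smad7 and Ski at -1.06, -1.86 and -1.50.

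Among microglia, microglia 3 was the highest of all 8 libraries in 7 of the 10 genes (Tgfb1, Nrros, Tgfbr1, Tgfbr2, Smad3, Smad7 and Ski) and the lowest in 2 (Tgfb2 and Tgfb3). Of the 10 genes, 7 had a negative log2 fold change, against 46.9% of all genes tested. Without microglia 3 the values moved toward 0 for Tgfbr1 (-0.89, adjusted p = 0.553), Tgfbr2 (-1.05, adjusted p = 0.517), Smad3 (-1.28, adjusted p = 0.675) and Ski (-0.47, adjusted p = 0.995). It was also the microglia library with the largest share of Gm42418, 47.0%.

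The nearest profiles across the 8 libraries were sought for the 3 members with the largest differences, by the root mean square difference of centred log2 CPM among the 5050 genes that averaged 20 CPM or more. For Inhba they were Gpr132 (0.65), Ccr2 (0.66) and Napsa (0.75), against a median of 2.42 over these genes. For Smad3 they were Tmem119 (0.38), Fcrls (0.47) and Cst3 (0.48), against 1.48. Tmem119 and Fcrls are microglial markers, and both also overlapped between the groups. For Tgfb3 they were Kif13a (0.59), Wdr89 (0.62) and Gsr (0.62), against 1.28. These distances describe likeness over the libraries only.

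The rest of the pathway was read in 127 further genes on 7 lists, of which 103 were tested, 5 rose in BMDM and 13 fell. Of all genes tested, 1.11% were higher and 0.814% lower, the shares to set beside the counts of each list below. Of the 13, 9 belonged to the list of microglial genes that depend on TGF-beta. The lists were chosen with earlier results known, and most genes of that list are also microglial identity genes, so its count is not independent evidence of a direction. With BMDM 1 to 3 alone, 12 rose and 26 fell, where 6.35% of all genes were higher and 8.11% lower.

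Among 15 tested genes of latency and activation, 2 rose and 0 fell, with a median log2 fold change of 0.51 against 0.08 over all genes. That median was -0.44 with BMDM 1 to 3 alone, against 0.09 over all genes, with 3 higher and 1 lower. Thbs1, thrombospondin 1, which can release active TGF-beta, rose 6.29-fold, from 34.7 ± 13.1 CPM (n = 3) to 218 ± 98.5 (n = 5; edgeR adjusted p = 0.0111). Mmp14, a membrane metalloproteinase, rose 5.28-fold, from 98.5 to 520 CPM on average (adjusted p = 0.00722). Neither passed when microglia 1 was left out (adjusted p = 0.0757 for Thbs1 and 0.0664 for Mmp14) or when microglia 3 was (0.068 and 0.0724). Itgb8, an integrin subunit that activates latent TGF-beta in the brain, had 1.33 to 5.83 CPM in microglia and 0.28 to 3.73 in BMDM (log2 fold change -0.70, adjusted p = 0.89). Ltbp1, a matrix anchor of latent TGF-beta, had 68, 45 and 12 counts in microglia, 20 in BMDM 2 and 0 in the other BMDM libraries (adjusted p = 0.628). Lrrc32, the relative of Nrros on platelets and regulatory T cells, had 98 counts in BMDM 4 and at most 14 elsewhere (adjusted p = 0.497).

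In the list of activin, GDF and BMP ligands and their traps, 10 of 24 genes had enough counts to test, and 1 rose. That gene was Gdf3, a ligand of the family, at 0.89 to 1.21 CPM in microglia and 5.25 to 21.4 in BMDM (log2 fold change 3.50, SE 0.82, adjusted p = 0.0412). It did not pass if any microglia library was left out (adjusted p 0.173 to 0.209) or without BMDM 1, 2 or 3 (0.0738, 0.168 and 0.121), with library totals (0.0537) or with limma-voom (0.119). Inhbb, which encodes the other activin subunit, had 8 counts in BMDM 2 and 0 in the other 7 libraries. Fst, encoding the activin trap follistatin, had 0, 9 and 4 counts in microglia and 0, 2, 19, 0 and 12 in BMDM, too few to test. Gdf15, a stress-induced cytokine, was at 40.0 to 50.9 CPM in microglia and 24.2 to 95.6 in BMDM (log2 fold change 0.25, adjusted p = 0.895).

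Of 9 tested receptors and co-receptors, 1 fell and 0 rose. Bmpr2, the type II BMP receptor, was at 39.8 to 60.4 CPM in microglia and 11.5 to 24.8 in BMDM (log2 fold change -1.61, SE 0.38, adjusted p = 0.0417). It failed to pass when any microglia library was left out (adjusted p 0.095 to 0.21) or without BMDM 1, 2, 3 or 4 (0.0535 to 0.0983), and with RLE factors (0.0609), library totals (0.173) or rRNA models left out (0.0542). Acvrl1, a type I receptor also known as ALK1, was at 1.85 on the log2 scale (SE 0.50, adjusted p = 0.0842), and at 2.20 (adjusted p = 0.00336) with BMDM 1 to 3 alone. Acvr1b, the type I receptor, had 5.99 to 9.45 CPM in microglia and 0.48 to 16.4 in BMDM (log2 fold change 0.13, adjusted p = 0.979). Acvr2a, a type II receptor, had 3.31 to 5.01 CPM in microglia and 0.69 to 4.31 in BMDM 1 to 3, but 18.8 and 14.8 in the remaining BMDM libraries. Its log2 fold change was 0.93 (adjusted p = 0.782) with all libraries and -0.64 (adjusted p = 0.646) with BMDM 1 to 3 alone. Acvr2b and Bmpr1a were chosen for mention after their values were seen. Acvr2b, the other activin type II receptor, had 4.42 to 7.95 CPM in microglia and 0 to 2.93 in BMDM, without overlap (log2 fold change -2.31, adjusted p = 0.48). Bmpr1a, a type I BMP receptor, had 12.3 to 19.9 CPM in microglia and 0 to 1.86 in BMDM, also without overlap. Its log2 fold change of -4.51 (SE 1.17) missed the threshold (adjusted p = 0.0686), and passed at -3.85 with BMDM 1 to 3 alone (adjusted p = 0.0139) and at -4.38 with DESeq2 (adjusted p = 0.00608).

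None of 15 tested SMADs and positive cofactors was called by edgeR (0 higher and 0 lower), with 0 higher and 2 lower at an unadjusted p under 0.05. DESeq2 also called 0. Smad2, the partner of Smad3, was at 13.7 to 20.2 CPM in microglia and 4.92 to 35.4 in BMDM, with its 2 highest BMDM values in BMDM 4 and 5 (log2 fold change 0.0041, adjusted p = 1.00, or -0.86 with BMDM 1 to 3 alone, adjusted p = 0.206). Smad4, the common partner, was at 18.8 to 27.4 and 18.8 to 31.2 CPM (log2 fold change 0.012, 95% interval -0.78 to 0.81, or -0.0056 with BMDM 1 to 3 alone). Tab2 and Usp15, which act in TAK1 and SMAD signaling, were at -1.17 (adjusted p = 0.185) and -0.94 (adjusted p = 0.182), and Tab2 at -1.64 (adjusted p = 0.00382) with BMDM 1 to 3 alone.

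Of 15 genes listed as SMAD inhibitors, 1 fell and 0 rose. Ldlrad4, a membrane protein that keeps SMAD2 and SMAD3 from the receptor, was at 24.3 to 49.3 CPM in microglia and 5.73 to 12.1 in BMDM (log2 fold change -2.07, SE 0.44, adjusted p = 0.0234). The call was lost when any microglia library was left out (adjusted p 0.0643 to 0.275), without BMDM 2 or 3 (0.0608 and 0.0583), or with library totals (0.0904). Skil, the relative of Ski, was at -0.77 (adjusted p = 0.488) and at -1.27 (adjusted p = 0.0361) with BMDM 1 to 3 alone. Pmepa1, which is induced by TGF-beta, was at -0.34 (adjusted p = 0.82). Dab2, on this list but an endocytic adaptor rather than a direct SMAD inhibitor, was at 1.51 (adjusted p = 0.085). With BMDM 1 to 3 alone it was at 1.70 (adjusted p = 0.00955), and its libraries did not overlap between groups. Dab2 was past the threshold in 8 of 18 alternatives, among them the fit without BMDM 5 (1.54, adjusted p = 0.0332).

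Response genes of TGF-beta described across cell types moved both ways, with 2 of 20 higher and 2 lower. Tgfbi, a secreted matrix protein named for its induction by TGF-beta, had 78.4, 128 and 52.5 CPM in microglia and 717, 748, 1178, 808 and 790 in BMDM. All BMDM libraries stood above all microglia, and the log2 difference was 3.30 (SE 0.47, adjusted p = 0.00203). Tgfbi stayed past the threshold in all 18 alternatives. Cxcr4, a chemokine receptor, rose by 2.22 on the log2 scale (SE 0.38, adjusted p = 0.00758), a call lost without microglia 1 (adjusted p = 0.0615) or microglia 3 (0.0835). Hpgd, which breaks down prostaglandins, was at -4.79 (SE 0.98, adjusted p = 0.0197), with 0 to 1.97 CPM in BMDM against 7.14 to 39.9 in microglia, and lost its call without microglia 1 (0.0573), microglia 3 (0.321) or BMDM 3 (0.0655), and with library totals (0.0618).

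Microglial genes that depend on TGF-beta in mice were lower in BMDM, with 9 of 19 called and 0 higher, against 0.814% of all genes called lower, and a median log2 fold change of -2.23. The BMDM libraries lay below all microglia for 16 of the 19, against 8.66% of all genes. Adgrg1, an adhesion receptor, had the largest fold of the 9 at -4.57 (SE 0.44, adjusted p = 0.000148), and Cx3cr1, the fractalkine receptor, the smallest at -1.89 (SE 0.44, adjusted p = 0.0396). With BMDM 1 to 3 alone, 16 of the 19 were called lower and 0 higher, against 8.11% of all genes called lower. Leaving out 1 library gave 4 called genes without microglia 1, microglia 3, BMDM 1 or BMDM 2, and 16 without BMDM 5. The call of Cx3cr1 was lost without microglia 1 (adjusted p = 0.0957), microglia 3 (0.31) or any 1 of BMDM 1 to 4 (0.0583 to 0.109).

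**Figure D4:**
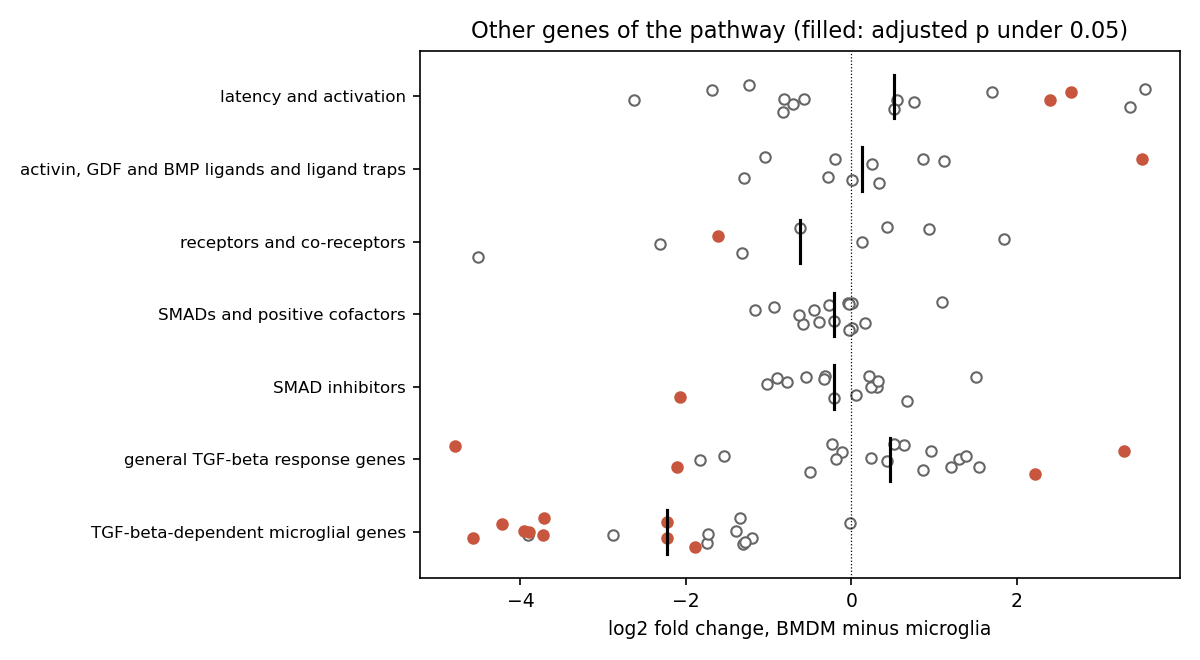
Log2 fold change, BMDM minus microglia, of the 103 tested genes of 7 pathway lists, with 1 point per gene. Filled points passed the test and black bars are list medians, from -2.23 for the TGF-beta-dependent microglial genes to 0.51 for latency and activation.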

How the data were processed

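Per the labels' protocols, total RNA of FACS-sorted cells was used for QuantSeq 3′ FWD library preparation, which reads the 3′ end of polyadenylated transcripts, with sequencing on a NextSeq500. The file used is the authors' gene table, deposited as raw counts without normalization. Per the submitters' processing notes, the mm10 build and DESeq2, featureCounts, STAR, cutadapt and FastQC were used, and the settings for strand and multiply mapped reads are not given in the sources used here. Counting error limits low genes, and no value is corrected for duplicate reads. All 55450 identifiers and names matched GENCODE M21 (GRCm38), the source of positions and exon lengths.

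Counts were tested with edgeR 4.0.16 (R 4.3.3), using filterByExpr (minimum count 10, total 15), TMM factors, robust quasi-likelihood fits and Benjamini-Hochberg adjustment over 16467 genes. Samples were grouped by title, BMDM minus microglia over 8 libraries. Intervals of log2 fold changes use the residual and prior degrees of freedom of the fit, SE comes from the F statistic, and log2 CPM used a prior count of 2. Whether each library is a separate mouse is not stated, and p-values then reflect only library-to-library spread, which may be technical. All replicate pairs differed by more than sampling noise (chi-square per gene at least 18.995). The genes and lists were chosen with earlier results of these data known. Named list members were those called, the 2 with the largest fold at a mean of 20 CPM or more per list, and 13 set by name. A gene of the response list is counted but not reported here. In simulated data of this comparison with 14594 genes, edgeR recovered 0% of genes with a true log2 change of 1, 22.2% at 2, 47.7% at 3 and 44.2% at 4, with 5 false calls among 55. Alternatives were RLE factors, library totals, no filter, 10 CPM in 3 libraries, DESeq2 1.42.0, limma 3.58.1 voom with and without sample weights, a replicate block, BMDM 1 to 3 alone, removal of Gm42418 and mitochondrial rRNA, and each library left out.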

Additional observations from a re-analysis of the deposited data

Results flagged for a closer look

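In 47 sets of 5 BMDM values, 7 had 1 library far from the other 4 by the Dixon ratio (above 0.71). Chance alone flags about 1 in 20 sets of normally distributed values. That rate need not hold for CPM and shares, or for Ltbp1, which was at 0 in all BMDM libraries but BMDM 2. The 7 are therefore not an excess over chance that these values can show. Tgfb2 made up 44.8% of TGF-beta ligand counts in BMDM 1, against 10.9% to 16.9% in the other BMDM libraries. Lrrc32 stood at 15.6 CPM in BMDM 4, and Ltbp1 at 2.46 CPM in BMDM 2. Tab2 stood at 155 CPM in BMDM 5, within the microglial range of 148 to 233. BMDM 3 was the high library for Tgfbi (1178 CPM), Cx3cr1 (949 CPM) and Slc2a5 (11.2 CPM).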

How the results depend on the processing

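Of the 10 genes, 8 kept their sign under all 18 alternatives. The call of Inhba was lost only with limma-voom, where 0 of the 10 were higher. Tgfb1 was at 0.12 and Nrros at 0.068 with limma-voom sample weights, and without 1 library they ran from -0.61 to 0.27 and from -0.48 to 0.29. Lower calls among the 10 were 3 with no filter, 3 with sample weights, 5 with the replicate block and 3 with BMDM 1 to 3 only, against 0. Of all genes, 318 of 31187 were lower with no filter, 1685 of 16467 with sample weights and 1774 of 16467 with the block. With BMDM 1 to 3 only it was 1312 of 16182 (8.11%), against 134 of 16467 (0.814%) in the main fit.

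Over all genes, higher and lower calls (183 and 134) became 403 and 318 with no filter, 601 and 313 with DESeq2, 160 and 266 with limma-voom, 1063 and 1685 with sample weights, 1449 and 1774 with the replicate block, and 1028 and 1312 with BMDM 1 to 3 only. Without 1 library they ran from 58 (without microglia 3) to 536 (without BMDM 5) and from 46 to 602. Pathway genes (5 and 13) became 8 and 19 with no filter, 8 and 18 with DESeq2, 13 and 29 with sample weights, 13 and 32 with the block, 12 and 26 with BMDM 1 to 3 only, and 7 lower with library totals; without 1 library they ran from 1 to 9 and from 5 to 23. The causes were not tested.

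Some signs turned among pathway genes that were not called. Acvr1b was at -0.45 (limma-voom), -0.29 (sample weights) and -0.20 (block), and -0.24 to 0.40 without 1 library. Acvr2a was at -0.49 (sample weights), -0.86 (block) and -0.64 (BMDM 1 to 3 only). Smad2 was at -0.029 (library totals), -0.021 (no filter), -0.36 (limma-voom), -0.83 (sample weights), -0.94 (block) and -0.86 (BMDM 1 to 3 only), and -0.52 to 0.24 without 1 library. Smad4 was at -0.020 (no filter), -0.029 (limma-voom), -0.10 (sample weights), -0.016 (block) and -0.0056 (BMDM 1 to 3 only), and -0.21 to 0.10 without 1 library. Gdf15 ran from -0.031 to 0.43 without 1 library.

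Whether the replicate numbers pair the samples is not known. Same-numbered deviations correlated at 0.28, 0.13 and -0.01, and differently numbered ones at -0.30 to 0.27. So few pairs cannot decide it, and the block leaves BMDM 4 and 5 without a partner. Scaling by library totals moved the median log2 fold change of all genes by 0.13, that with BMDM 1 to 3 only by 0.12, limma-voom by -0.19 and leaving out microglia 3 by -0.13. Low counts limit Tgfb2, Tgfb3 and Inhba in microglia, where 3 counts equal 0.16 to 0.33 CPM.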

Other observations

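Of the 10 genes, Inhba, Ski and Tgfbr2 split within BMDM, between BMDM 1 to 3 and BMDM 4 and 5. Acvr2a and Smad2, picked from the further lists, did so too. These libraries also differ in their share of Gm42418. Chi-square per gene between these sets of libraries was 111 to 248. It was 19.0 to 45.9 among BMDM 1 to 3. The share of all genes that split this way was not computed, so the split cannot be called particular to this pathway. Inhba was at 11.8 to 29.7 CPM in BMDM 1 to 3 and at 63.8 and 70.8 in BMDM 4 and 5. Acvr2a was at 0.69 to 4.31 against 18.8 and 14.8 CPM, Smad2 at 4.92 to 12.1 against 19.6 and 35.4, and Ski at 75.7 to 158 against 203 and 372. Tgfbr2 went the other way, at 41.4 to 53.9 against 20.7 and 23.8 CPM. BMDM 4 and 5 were set apart after their values were seen, so no test was made between them and BMDM 1 to 3. The fits with BMDM 1 to 3 alone carry the same limit.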
